A study of Homo sapiens with 8 samples.

Results

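The proteasome was examined through the 48 protein-coding genes of GENCODE version 44 whose symbols begin with PSMA, PSMB, PSMC, PSMD, PSME, PSMF or PSMG followed by a number. These 48 genes were picked by a rule on names, though with earlier results of these data known. The count table held transcripts of 20045 protein-coding genes and of 62639 genes of any type. The 48 genes encode the subunits of the proteasome, its activators, 1 inhibitor and its assembly chaperones. In 44 of them enough reads were counted for a test, and their RNA was compared between PTBP1 knockdown (KD) and control leukemia cells.

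The proteasome is the main protease of the cytosol and nucleus and degrades proteins that carry ubiquitin chains. Its 20S core is a barrel of stacked alpha and beta rings with the proteolytic sites inside the beta rings, and the 19S cap recognizes, unfolds and feeds in the substrate. Interferon induces alternative catalytic beta subunits and the PA28 activator, which alter the peptides made for class I antigen presentation, and the catalytic beta subunits are the targets of drugs used in blood cancers.

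MOLM-13, an acute myeloid leukemia cell line, had been transduced with lentiviral constructs that carried either an shRNA against PTBP1 (shPTBP1) or a scrambled shRNA (labelled shControl). PTBP1, polypyrimidine tract binding protein 1, is an RNA-binding protein that controls splicing. Both groups, with 4 libraries each, were kept in doxycycline for 9 days, which turned on the shRNA together with a truncated receptor, and both carried constitutive mCherry, so that the only stated difference was the shRNA sequence. RNA was read as cDNA with long reads on a nanopore sequencer. The labels call the libraries biological replicates but do not say whether they came from separate cultures, so that p-values measure only the spread between these libraries.

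The libraries held 1528449 to 1613342 counts, of which 1.58% to 1.65% lay in proteasome genes. The level of PTBP1 was 6.33, 9.91, 8.56 and 14.7 CPM (counts scaled to a normalized library total of 1000000) in shPTBP1 replicates 1 to 4 and 39.9, 57.3, 42.7 and 50.05 in shControl replicates 1 to 4, so that the knockdown libraries were all below the controls. PTBP2, a paralog that PTBP1 is known to hold down, was at 124 ± 5.44 CPM (SD, n = 4) with shPTBP1 and 1.45 ± 0.814 with shControl. Of 10 myeloid markers, 9 had at least 10 counts over the 8 libraries, and SPI1 had 1 count. Their summed level was 749 to 858 CPM with shPTBP1 and 683 to 730 with shControl, and the groups did not overlap. LYZ had the largest difference of means, at 345 ± 60.7 CPM with shPTBP1 and 274 ± 25.4 with shControl. Of the 7 markers tested, 5 had log2 fold changes above and 2 below zero, and none was called. FLT3, not tested, was at 2.93 and 5.56 CPM, lower with shPTBP1 without overlap. The part of the summed level in the results on proteasome genes was not tested. Of 14 markers of T, B, erythroid, epithelial and fibroblast cells, 6 had no count and 4 (CD79A, KRT8, COL1A1 and COL1A2) had at least 10. Their summed level was 11.4 to 19.2 CPM with shPTBP1 and 14.6 to 20.3 with shControl. Mitochondrial counts made up 1.09% of shControl replicate 2 and 1.75% to 2.19% of the others.

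Across the whole table, 242 genes were lower and 179 higher in PTBP1 KD among 7597 genes that entered the edgeR quasi-likelihood test, with calls made below a Benjamini-Hochberg adjusted p of 0.05. Of the 44 proteasome genes tested, 2 rose (PSMB5 and PSMG3) and 1 fell (PSMD9), or 6.82%, where 5.54% of all genes were called. Among all genes 2.36% were called higher and 3.19% lower. The other 41 did not pass the test. The log2 fold changes (shPTBP1 over shControl) ran from -0.57 to 0.42, with 22 above and 22 below zero and a median of 0.01, beside a median of -0.00 over all genes. The median distance from zero was 0.08 for proteasome genes and 0.17 for all genes. In 7 of the 44 (15.9%) the libraries of the groups did not overlap, as in 12.7% of all genes, and 8 had an unadjusted p under 0.05 (18.2%, against 19.2% of all genes).

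The size of change that these libraries allow was narrow for most of the complex. For 39 of the 44 genes the 95% interval of the change lay within 1.5-fold in either direction, and so it did for all 29 genes with a control mean above 100 CPM. The intervals of the 41 genes that were not called reached from -1.07 to 0.83 on the log2 scale. The widest ones belonged to PSMD1, PSMD5 and PSMG1, which had 95, 106 and 164 counts over the 8 libraries. These were bulk libraries, in which fewer cells that express a gene and less RNA per cell cannot be told apart.

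**Figure D1:**
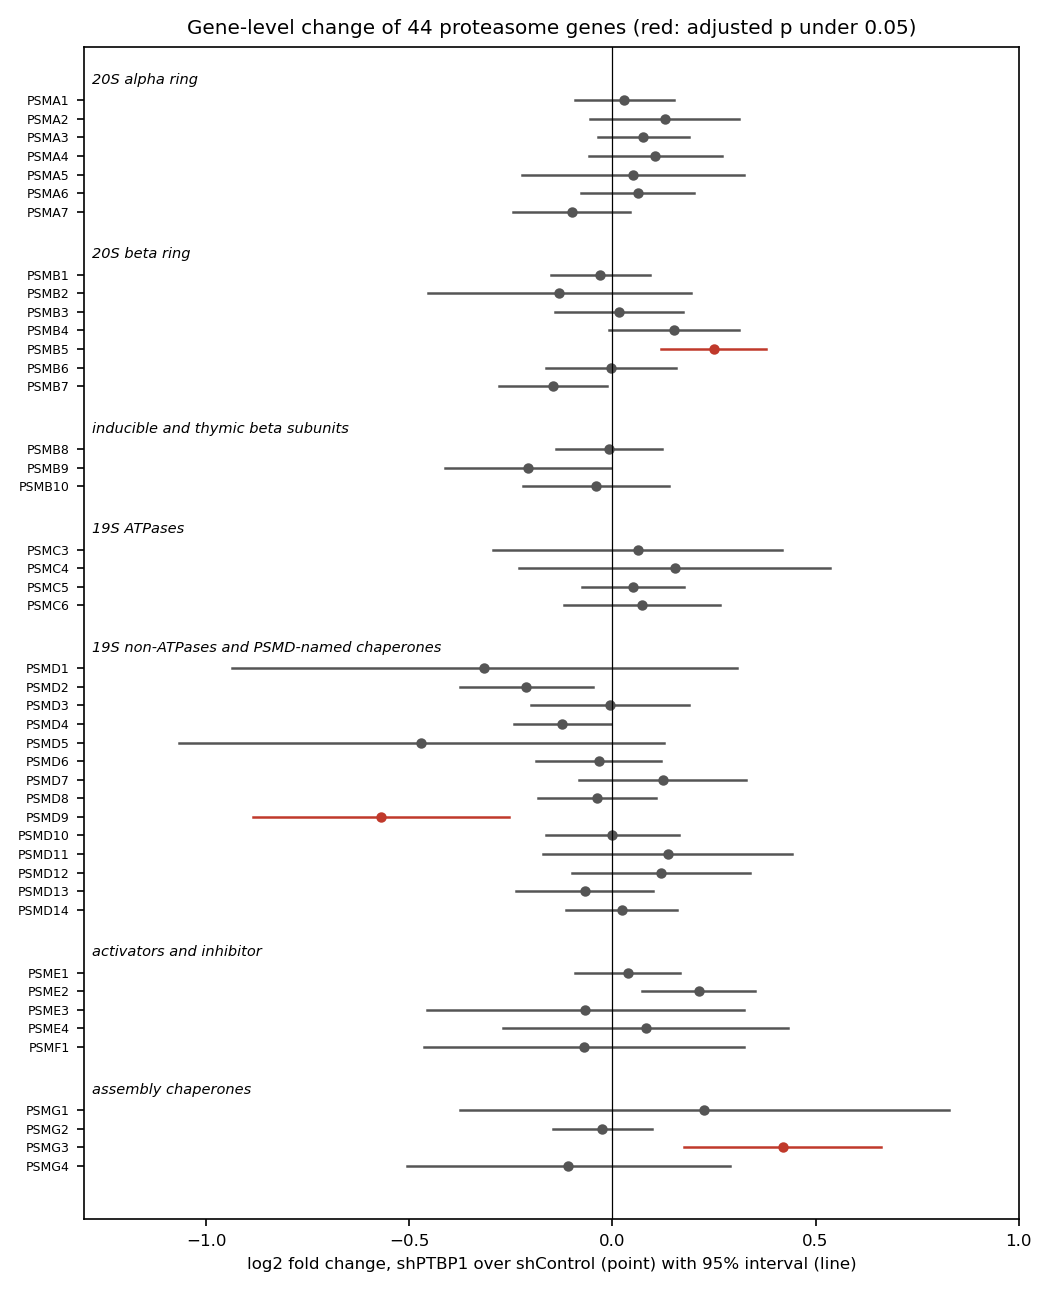
Log2 fold change (x axis, shPTBP1 over shControl) of the 44 proteasome genes tested, grouped by role, with each line spanning the 95% interval. PSMB5 (0.25) and PSMG3 (0.42) lie to the right of zero and PSMD9 (-0.57) to the left, in red, while 41 genes in grey did not pass the test.

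The alpha ring gates the entry to the core, and none of its genes passed the test. Its summed level was 3292 ± 115 CPM (SD, n = 4) with shPTBP1 and 3210 ± 111 with shControl, and the libraries overlapped. The 7 alpha genes tested held no call by edgeR or by DESeq2, and none had an unadjusted p under 0.05. PSMA3 was at 669, 709, 693 and 681 CPM in shPTBP1 replicates 1 to 4 and at 664, 641, 654 and 651 in shControl replicates 1 to 4. Every knockdown library thus lay above every control, by a small step, and edgeR gave an adjusted p of 0.467 (log2 fold change 0.08, SE 0.05). PSMA2 had the smallest unadjusted p of the ring, at 103 ± 6.59 CPM with shPTBP1 and 93.9 ± 5.82 with shControl (log2 fold change 0.13, SE 0.09, edgeR adjusted p = 0.449). PSMA8, a form of an alpha subunit known from testis, had no count in any library. For counting error alone, this puts the 95% upper limit of the expected count at about 3 per library.

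Of the constitutive beta subunits, PSMB5 rose. PSMB5 encodes the beta 5 subunit, which carries the chymotrypsin-like site and is the main target of bortezomib. Its gene lies on the minus strand at chr14:23016543-23035230 (GRCh38, GENCODE version 44). It was at 449, 483, 476 and 469.9 CPM in shPTBP1 replicates 1 to 4 and at 389.6, 372, 420.1 and 398 in shControl replicates 1 to 4. The lowest knockdown library was above the highest control. PSMB5 was 18.9% higher in PTBP1 KD (95% interval of the fold 1.09 to 1.30, log2 fold change 0.25, SE 0.06, edgeR adjusted p = 0.0298). The exact two-sided permutation test over the 8 libraries gave p = 0.0286, the smallest value that the 70 splits allow. With 1 library left out, PSMB5 was called in 2 of 8 fits, those without shPTBP1 replicate 1 and without shControl replicate 3. Over all 15 alternatives its log2 fold change ran from 0.21 to 0.28 and the adjusted p from 0.0149 to 0.0891.

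The other catalytic subunits of the constitutive core did not pass the test. PSMB7, the beta 2 subunit with the trypsin-like site, was at 312, 322, 304 and 316 CPM in shPTBP1 replicates 1 to 4 and at 328, 362, 363 and 335 in shControl replicates 1 to 4. The knockdown libraries all lay below the controls (log2 fold change -0.15, SE 0.06, edgeR adjusted p = 0.218). PSMB6, the beta 1 subunit with the caspase-like site, was at 738 ± 66.9 CPM with shPTBP1 and 740.3 ± 50.6 with shControl. Of the noncatalytic subunits, PSMB4 was at 2059.8 ± 173 CPM with shPTBP1 and 1854 ± 167 with shControl (log2 fold change 0.15, SE 0.07, edgeR adjusted p = 0.289). PSMB1, PSMB2 and PSMB3 had log2 fold changes between -0.13 and 0.02. The summed level of the ring was 5691 ± 252 CPM with shPTBP1 and 5470.1 ± 259 with shControl, with overlapping libraries.

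None of the 3 interferon-inducible beta genes tested was called by edgeR or DESeq2, and 1 had an unadjusted p under 0.05. PSMB8 (LMP7), which takes the place of PSMB5 in the immunoproteasome, was at 925 ± 61.4 CPM with shPTBP1 and 930.1 ± 37.5 with shControl, and the interval of its log2 fold change was -0.14 to 0.12. PSMB10 (MECL-1), which takes the place of PSMB7, was at 388 ± 31.5 and 399 ± 40.5 CPM. PSMB9 (LMP2), the counterpart of PSMB6, was at 72.8, 67.4, 68.5 and 71.7 CPM in shPTBP1 replicates 1 to 4 and at 87.3, 87.2, 73.4 and 75.7 in shControl replicates 1 to 4. Its knockdown libraries were all below its controls, the nearest by less than 1 CPM (log2 fold change -0.21, SE 0.09, edgeR adjusted p = 0.252). PSMB9 overlaps PSMB8-AS1 (117 to 160 counts per library) on its own strand, where strand cannot separate shared reads, and PSMB8 and TAP1 on the other strand. How strand was used in counting was not stated, so that reads shared with a gene on the other strand cannot be told apart. PSMB11, the thymic subunit, had no count in any library.

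The balance between constitutive and inducible subunits was compared within libraries. The ratio of PSMB5 to PSMB8 counts was 0.518, 0.479, 0.513 and 0.525 in shPTBP1 replicates 1 to 4 and 0.441, 0.381, 0.451 and 0.429 in shControl replicates 1 to 4. The groups did not overlap. PSMB5, its numerator, was the gene that was called. The ratio of PSMB6 to PSMB9 was 10.6 ± 1.31 with shPTBP1 and 9.24 ± 1.34 with shControl, and that of PSMB7 to PSMB10 was 0.812 ± 0.0508 and 0.879 ± 0.119, both with overlapping libraries.

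**Figure D2:**
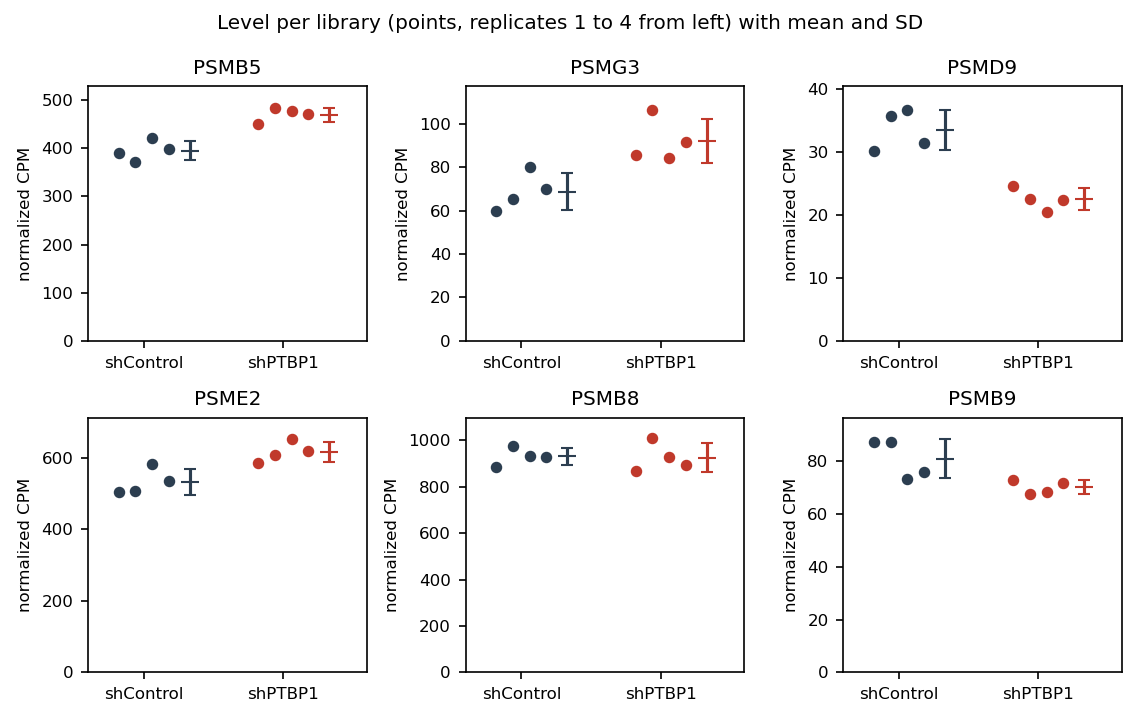
Normalized CPM (y axes, from 0) of PSMB5, PSMG3, PSMD9, PSME2, PSMB8 and PSMB9 in each library (points) with the group mean and SD (bars) for shControl and shPTBP1. The groups are apart for PSMB5, PSMG3, PSMD9, PSME2 and PSMB9 and overlap for PSMB8 (925 ± 61.4 and 930.1 ± 37.5).

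The ATPases that form the base of the 19S cap and unfold the substrate were the most unevenly detected group. None of the 4 tested (PSMC3, PSMC4, PSMC5 and PSMC6) was called by edgeR or DESeq2, and none had an unadjusted p under 0.05. PSMC5 was at 632 ± 26.7 CPM with shPTBP1 and 609.6 ± 26.6 with shControl (log2 fold change 0.05, SE 0.06, edgeR adjusted p = 0.698). PSMC1 had 4, 4, 1 and 6 counts in shPTBP1 replicates 1 to 4 and 4, 0, 2 and 1 in shControl replicates 1 to 4. PSMC2 had 3, 4, 1 and 6 counts in shPTBP1 replicates 1 to 4 and 0, 4, 2 and 1 in shControl replicates 1 to 4. Both fell below the filter on low counts and were not tested. PSMC2 overlaps PMPCB (239 to 335 counts per library) on its own strand, where shared reads cannot be told apart. PSMC1P1, a processed pseudogene of PSMC1, had 96 counts over the 8 libraries, against 22 for PSMC1 itself, so that the level of PSMC1 is uncertain. Summed over the ATPases, the level was 826 ± 24.5 CPM with shPTBP1 and 791 ± 39.4 with shControl.

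The levels per length differed widely within the complex. On the scale of CPM per kb of transcript, where each transcript count was divided by its annotated length, the control mean ran from 45.5 ± 8.23 (PSMA5) to 933 ± 64.8 (PSMA6) within the alpha ring. Within the constitutive beta ring it ran from 9.36 ± 1.55 (PSMB2) to 2025 ± 182 (PSMB4). Without division by length, the control means were 41.4 ± 6.85 CPM (PSMB2) and 1854 ± 167 CPM (PSMB4). The scaling widened this range, since the mean annotated length was 4426 bases for PSMB2 and 916 for PSMB4. Among the 19S ATPases it ran from 0.389 ± 0.397 (PSMC2) to 461 ± 17.2 (PSMC5). As background, the subunits of a ring are present in equal number in the assembled particle. In the knockdown PSMB4 was at 2253 ± 187 and PSMB2 at 8.56 ± 1.17 CPM per kb.

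**Figure D3:**
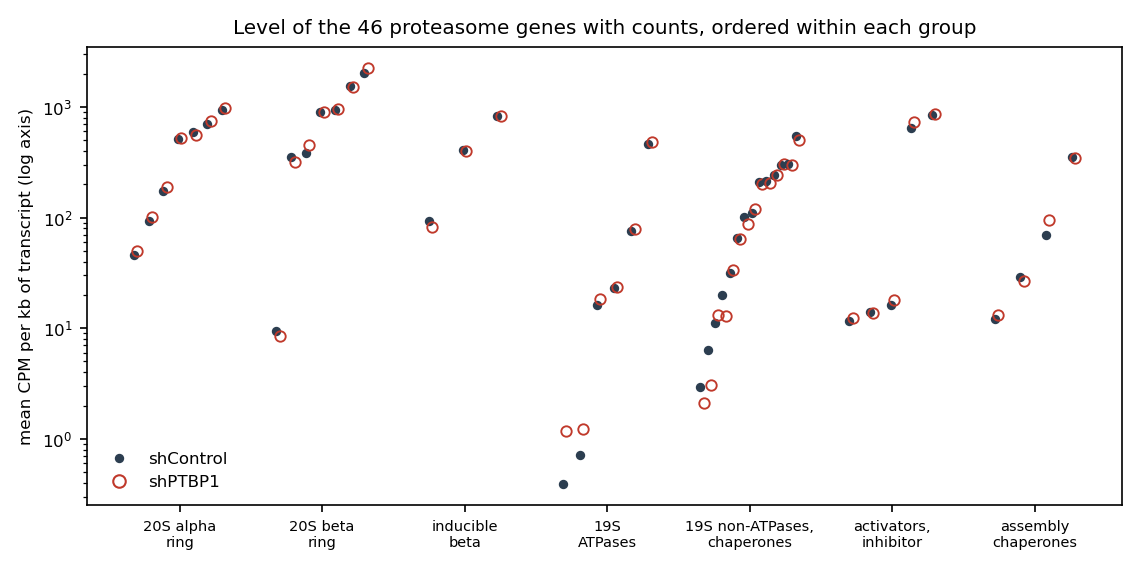
Mean CPM per kb of transcript (y axis, log scale) of the 46 proteasome genes with any count, ordered within each role, with filled points for shControl and open points for shPTBP1. PSMB4 (2025 in shControl) is the highest, and PSMC1 and PSMC2, between 0.389 and 1.23, are the lowest.

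Of the 14 genes named PSMD, which encode the non-ATPase subunits of the 19S cap and 3 chaperones of its base, 1 fell and 13 did not pass the test. PSMD9 (p27) is a chaperone that binds the ATPases while the base is built. Its gene lies on the plus strand at chr12:121888732-121918297. PSMD9 was at 24.7, 22.5, 20.4 and 22.4 CPM in shPTBP1 replicates 1 to 4 and at 30.1, 35.7, 36.7 and 31.4 in shControl replicates 1 to 4. All knockdown libraries were lower, from 31 to 39 counts against 49 to 56 counts. PSMD9 fell by 32.6% (95% interval of the fold 0.542 to 0.838, log2 fold change -0.57, SE 0.15, edgeR adjusted p = 0.0383, exact permutation p = 0.0286). DESeq2 gave a like log2 fold change of -0.57 but did not call it (adjusted p = 0.163). With 1 library left out it was called in 2 of 8 fits, those without shPTBP1 replicate 1 and without shControl replicate 1. Over its 14 alternatives the log2 fold change ran from -0.62 to -0.52 and the adjusted p from 0.0299 to 0.163.

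Both transcript classes of PSMD9 had lower means with shPTBP1, on few counts, and the changes of the classes were not compared by a test. Its protein-coding transcripts were at 14.1 ± 1.86 CPM with shPTBP1 (18 to 25 counts) and 20.9 ± 3.10 with shControl (30 to 40 counts). Its transcripts annotated for nonsense-mediated decay (NMD) or with a retained intron were at 8.43 ± 0.965 and 12.5 ± 2.85 CPM (11 to 14 and 16 to 25 counts). The mean change was -32.9% and -32.7%, and neither class overlapped between groups. The promoter of PSMD9 is shown because it holds letters of elements that proteasome genes are known for. It runs from 250 bases before to 50 after the RefSeq start (chr12:121888540-121888839, plus strand, GRCh38.p14), with capitals for the antioxidant response element core TGACNNNGC and the ETS core CCGGAAG on either strand.

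PSMD9 promoter: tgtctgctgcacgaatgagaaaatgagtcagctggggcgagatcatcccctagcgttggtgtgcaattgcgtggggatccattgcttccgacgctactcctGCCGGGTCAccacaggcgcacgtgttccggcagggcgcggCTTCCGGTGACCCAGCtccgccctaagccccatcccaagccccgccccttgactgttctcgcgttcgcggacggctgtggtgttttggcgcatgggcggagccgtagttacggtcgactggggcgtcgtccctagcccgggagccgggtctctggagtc

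TGACNNNGC, read by the factor NFE2L1 when proteasome activity falls, was present at 2 places in this window and at 1 place directly followed the ETS letters, with no base shared. Of the 48 genes, 42 matched the RefSeq promoter table, with 51 promoters. TGACNNNGC was found in 29.4% of these (15 genes) and in 13.3% of all 35116 promoters. The letters CCGGAAG were in 29.4% and 10.3%, and CCAAT in 39.2% and 34.6%. The motif of nuclear respiratory factor 1 (NRF1, its palindromic core, both strands) was in 13.7% and 5.78%. NRF1 here is a factor other than NFE2L1. The core of the interferon-stimulated response element (ISRE) was in 13.7% and 3.57%. Both promoters listed for PSMB5 lacked TGACNNNGC, CCGGAAG and the NRF1 and ISRE cores, and 1 of them held CCAAT. PSMD9 was the only called gene among those with TGACNNNGC and among those with CCGGAAG. A match of letters is a description only.

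Among the other 19S genes, PSMD2 and PSMD4 stood nearest to a call. PSMD2 (Rpn1), the large scaffold that docks ubiquitin receptors and USP14, was at 274, 255, 246 and 243 CPM in shPTBP1 replicates 1 to 4 and at 273, 327, 274 and 304 in shControl replicates 1 to 4. The groups overlapped by 1 library (log2 fold change -0.21, SE 0.08, edgeR adjusted p = 0.133). PSMD4 (Rpn10), a ubiquitin receptor, was at 655 ± 20.1 CPM with shPTBP1 and 714 ± 28.6 with shControl (log2 fold change -0.12, SE 0.06, edgeR adjusted p = 0.242). PSMD14 (Rpn11), the deubiquitinase of the cap, had an interval of -0.11 to 0.16 around a log2 fold change of 0.02. The 2 other base chaperones were at 358 ± 36.7 and 358 ± 12.4 CPM (PSMD10, gankyrin) and at 7.12 ± 1.52 and 9.88 ± 1.79 CPM (PSMD5), with shPTBP1 and shControl respectively. PSMD5 had 9 to 19 counts per library, too few for a narrow interval (-1.07 to 0.13). The summed level of the 14 genes was 3234 ± 47.3 CPM with shPTBP1 and 3344 ± 120 with shControl, with overlapping libraries.

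The activators, which open the core without ubiquitin, and the inhibitor PSMF1 (PI31) held no call. PSME2, the beta subunit of the interferon-inducible PA28 activator, was nearest. It was at 587, 607, 652 and 620.4 CPM in shPTBP1 replicates 1 to 4 and at 504, 506, 584 and 534 in shControl replicates 1 to 4. The lowest knockdown library was just above the highest control, and edgeR gave an adjusted p of 0.0769 (log2 fold change 0.21, SE 0.06). DESeq2 called it (log2 fold change 0.22, adjusted p = 0.0464), as did edgeR on genes with a mean of at least 50 counts (adjusted p = 0.0467) and edgeR without shControl replicate 3 (adjusted p = 0.0438). Over 15 alternatives its adjusted p ran from 0.0438 to 0.208. PSME1, its partner in the same ring, was at 835 ± 45.1 CPM with shPTBP1 and 813 ± 37.9 with shControl (log2 fold change 0.04, interval -0.09 to 0.17).

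PSME3, PSME4 and PSMF1 had 376 to 472 counts over the 8 libraries, and their log2 fold changes were -0.07 (PSME3, the nuclear PA28 gamma), 0.08 (PSME4, PA200) and -0.07 (PSMF1). PSME3 was at 50.6 CPM in shPTBP1 replicate 4 and at 29.1 to 30.4 in the other knockdown libraries. Without that replicate its log2 fold change was -0.30 and it was still not called. Summed over the 5 genes, the level was 1554 ± 50.4 CPM with shPTBP1 and 1450.4 ± 76.3 with shControl, with overlapping libraries.

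Of the assembly chaperones, PSMG3 rose. PSMG3 (PAC3) works with PSMG4 (PAC4) in building the alpha ring, and PSMG1 (PAC1) with PSMG2 (PAC2). The gene lies on the minus strand at chr7:1567332-1571005. PSMG3 was at 85.4, 106, 84.3 and 91.6 CPM in shPTBP1 replicates 1 to 4 and at 59.6, 65.6, 80.02 and 69.9 in shControl replicates 1 to 4. Every knockdown library was above every control, the closest pair by under 5 CPM. PSMG3 was 33.7% higher (95% interval of the fold 1.13 to 1.58, log2 fold change 0.42, SE 0.11, edgeR adjusted p = 0.0461, exact permutation p = 0.0286). DESeq2 gave a log2 fold change of 0.42 and an adjusted p of 0.0784. Leaving out 1 library kept the call only without shControl replicate 3. Over 15 alternatives the log2 fold change ran from 0.34 to 0.50 and the adjusted p from 0.0293 to 0.140. The antisense gene PSMG3-AS1 had 4 to 13 counts per library.

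The partner of PSMG3 did not move with it beyond the spread. PSMG4 was at 17.6 ± 3.00 CPM with shPTBP1 and 19.03 ± 1.56 with shControl (log2 fold change -0.11, SE 0.18). PSMG2 was at 370.4 ± 12.5 and 377 ± 3.23 CPM, and PSMG1 at 14.2 ± 1.91 and 12.2 ± 5.08. The difference between the changes of PSMG3 and PSMG4 was not tested.

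**Figure D4:**
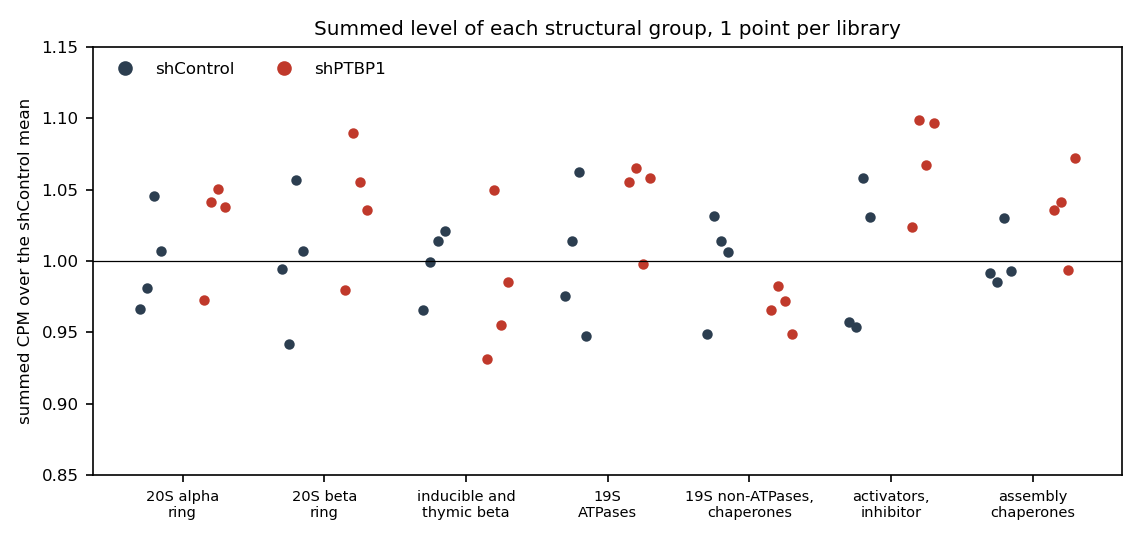
Summed CPM of each structural group in every library, divided by the shControl mean of that group (y axis, which does not start at zero), with dark points for shControl and red points for shPTBP1. In all 7 groups the libraries of shControl and shPTBP1 overlap, and the highest ratio of means is 1.07 for the activators and inhibitor.

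The 48 genes together were at 16473 ± 480 CPM (SD, n = 4) with shPTBP1 and 16152 ± 508 with shControl. The ratio of the group means was lowest for the 19S non-ATPase group (0.967) and highest for the activators and inhibitor (1.07). In each of the 7 groups the libraries overlapped.

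Isoform usage was the second readout, since long reads can span whole transcripts. Read lengths were not examined, so that the share of reads that did so is not known. The table held 506 transcripts of the 48 genes, 279 of them with counts, and 51 transcripts of 21 genes could be tested with diffSpliceDGE of edgeR. No proteasome isoform was called, which took an adjusted p below 0.05 plus a shift of at least 10 percentage points, where 1.12% of 5464 isoforms were called in the whole table. At an unadjusted p under 0.05 there were 5 (9.80%, against 6.37% of all isoforms), and diffSplice of limma also called none. The fractions of 9 isoforms did not overlap between groups (17.6%, against 10.7% of all isoforms).

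PSME2-203 was the only proteasome isoform with an adjusted p under 0.05, as were 1.78% of all isoforms, and its change was below the minimum. It is annotated as a target of NMD, the pathway that removes RNAs with an early stop codon. It had 120, 118, 114 and 132 counts in shPTBP1 replicates 1 to 4 and 81, 58, 71 and 82 in shControl replicates 1 to 4. As a fraction of PSME2 this was 12.9%, 12.8%, 11.5% and 13.6% with shPTBP1 and 9.87%, 7.30%, 8.11% and 9.84% with shControl. The groups did not overlap in counts or in fraction. The fraction was 3.95 percentage points higher in PTBP1 KD (diffSpliceDGE adjusted p = 0.0358, exact permutation p = 0.0286). The adjusted p ran from 0.0272 to 0.231 when 1 library was left out, and stayed under 0.05 only without shControl replicate 1 (0.0272) and without shControl replicate 4 (0.0415). On transcripts with a mean of at least 10 counts it was 0.07997. Over all its alternatives, by diffSpliceDGE or by diffSplice of limma, the adjusted p ran from 0.00604 to 0.231.

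The structures of the isoforms differ at an acceptor site. Against the main isoform PSME2-201, PSME2-203 starts further upstream, with 625 bases of its own at chr14:24146611-24147235, and it uses an acceptor that adds 124 bases to an exon at chr14:24145773-24145896 (minus strand, GRCh38). The 30 bases that end at each acceptor and the added exon part are shown because they are where the isoforms part. Capitals mark the closing AG of each acceptor and, in the exon part, the letters TCTT, a short pyrimidine run of the kind PTBP1 is known to bind.

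PSME2-201 acceptor, chr14:24145773-24145802: gattcccctcccttgcaatgtaacccacAG

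PSME2-203 acceptor, chr14:24145897-24145926: accagcttgggcaagtcctttcattttcAG

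PSME2-203 added exon part: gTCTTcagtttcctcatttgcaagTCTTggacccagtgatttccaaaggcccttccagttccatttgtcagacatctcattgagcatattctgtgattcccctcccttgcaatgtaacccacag

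The acceptor windows of PSME2-201 and PSME2-203 were 63.3% and 60% pyrimidine. The 422 acceptors of the main transcripts of the 48 genes had a median of 66.7%, and 47.2% of them held TCTT, which neither of these windows held. The added exon part, longer than these windows, held it at 2 places, and no rate for stretches of that length was compared. Binding of PTBP1 was not measured in these libraries.

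The promoter of PSME2 overlaps the extra 5′ part of PSME2-203 and is shown as the start from which PSME2-201 is made (chr14:24146561-24146860, minus strand, GRCh38.p14). Capitals mark TGACNNNGC and the ISRE core, which begins 28 bases before the start. The ISRE core was also found in promoters of PSMA4, PSMB4, PSMB8, PSMB10, PSME1 and PSMG4, and in none listed for PSMB9.

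PSME2 promoter: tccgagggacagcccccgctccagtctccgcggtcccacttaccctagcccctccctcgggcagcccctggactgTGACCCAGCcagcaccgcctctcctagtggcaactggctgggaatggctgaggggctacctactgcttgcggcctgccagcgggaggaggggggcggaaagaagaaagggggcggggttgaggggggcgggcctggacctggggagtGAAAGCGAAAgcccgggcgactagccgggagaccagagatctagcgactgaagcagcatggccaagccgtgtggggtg

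The higher level of PSME2 was uneven over its transcripts. Its protein-coding transcripts were at 536 ± 28.5 CPM with shPTBP1 and 483 ± 34.9 with shControl, 10.9% apart with overlapping libraries (exact permutation p = 0.0857). Its NMD and intron-retaining transcripts were at 79.8 ± 4.04 and 47.5 ± 6.84 CPM, 68.1% apart and without overlap (exact permutation p = 0.0286). Nearly all counts of this class came from the NMD isoform described above. PSME2 was split with those values already known, so that this p is not a separate test. The pseudogenes PSME2P1 and PSME2P2 had 104 and 65 counts over the 8 libraries, or 1.46% and 0.911% of the counts of PSME2.

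PSMB4, the beta 7 subunit, had higher mean fractions in PTBP1 KD for 3 isoforms with a retained intron. PSMB4-203 had 11, 12, 11 and 14 counts in shPTBP1 replicates 1 to 4 and 7, 7, 4 and 5 in shControl replicates 1 to 4. As a fraction of PSMB4 it was 0.380% ± 0.0597 with shPTBP1 and 0.1999% ± 0.0584 with shControl, without overlap (diffSpliceDGE adjusted p = 0.614). PSMB4-206 was at 1.41% ± 0.0333 and 1.09% ± 0.180, also without overlap, by 1.36% against 1.34% at the nearest (diffSpliceDGE adjusted p above 0.9). PSMB4-202, named after its values were seen, was at 1.31% ± 0.246 and 0.852% ± 0.144, with 1 knockdown library below the highest control (diffSpliceDGE adjusted p = 0.343). None of the 3 was called.

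The intron kept in PSMB4-203 is 186 bases long (chr1:151401356-151401541, plus strand, GRCh38), and 78 of the 422 introns of the main proteasome transcripts are as short or shorter. It is shown whole because it is the sequence that sets this isoform apart from PSMB4-201 in its body, with TCTT in capitals.

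PSMB4-203 retained intron: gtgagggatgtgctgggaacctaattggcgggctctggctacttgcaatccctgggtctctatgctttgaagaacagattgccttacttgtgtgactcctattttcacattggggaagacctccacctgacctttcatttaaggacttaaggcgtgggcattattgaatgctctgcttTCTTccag

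TCTT was present at 1 place in this intron, next to its acceptor, and no rate for introns of this length was compared. Together the intron-retaining transcripts of PSMB4 were at 59.5, 66.1, 66.5 and 70.4 CPM in shPTBP1 replicates 1 to 4 and at 47.9, 38.2, 36.7 and 37.2 in shControl replicates 1 to 4. The groups did not overlap, and the means were 64.0% apart (exact permutation p = 0.0286). Most counts of this class came from the intron-retaining isoforms described above. They were summed with those values already known, so that this p is not a separate test. The protein-coding transcripts of PSMB4 were 9.94% apart with overlapping libraries (exact permutation p = 0.2).

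**Figure D5:**
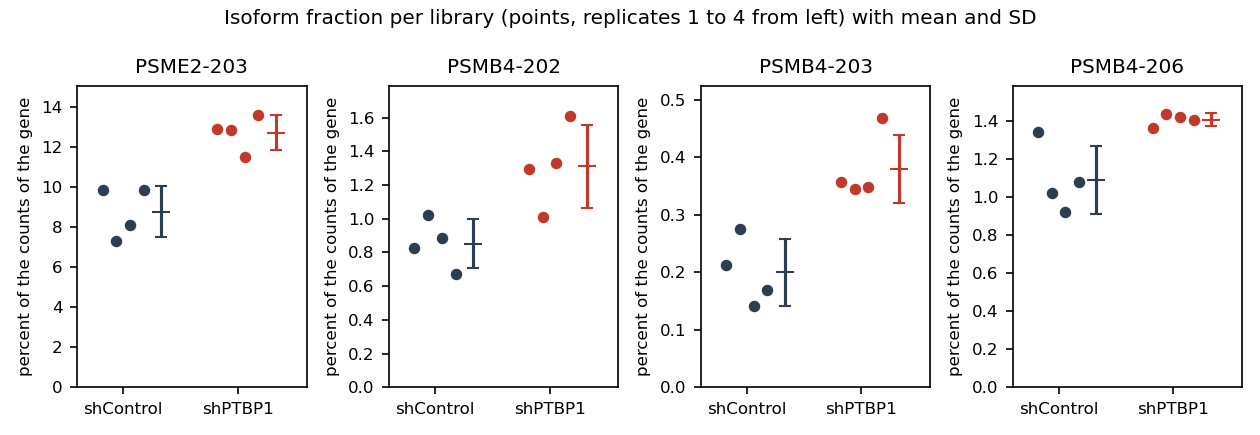
Fraction of the counts of the gene (y axes, percent, from 0) taken by PSME2-203, PSMB4-202, PSMB4-203 and PSMB4-206 in each library (points) with the group mean and SD (bars). PSME2-203 sits at 11.5% to 13.6% with shPTBP1 and 7.30% to 9.87% with shControl.

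Over all 48 genes, the share of counts in transcripts with a retained intron was 0.723% to 0.889% with shPTBP1 and 0.571% to 0.681% with shControl. The share in NMD-annotated transcripts was 0.716% to 0.799% and 0.584% to 0.700%. Neither overlapped between groups, whereas over all genes tested both shares overlapped, with means of 1.319% and 1.255% for retained introns and 3.19% and 3.25% for NMD. Each share rested on 1 gene. Without PSMB4 the retained-intron share was 0.396% to 0.522% with shPTBP1 and 0.390% to 0.442% with shControl. Without PSME2 the NMD share was 0.265% to 0.338% and 0.314% to 0.396%, with the lower mean in the knockdown. In the 19S non-ATPase group the NMD share was lower with shPTBP1 (0.747% to 0.862%) than with shControl (0.915% to 1.18%), without overlap.

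The largest changes of isoform fraction lay in genes with fewer counts and did not pass the test. PSMA5-201, the main isoform of PSMA5, was at 31.8%, 38.8%, 36.8% and 37.1% in shPTBP1 replicates 1 to 4 and at 43.7%, 47.6%, 40.4% and 45.5% in shControl replicates 1 to 4, without overlap. PSMA5-204, which has no defined coding sequence, was at 63.7% ± 3.07 and 55.4% ± 3.02, also without overlap. PSMC4-201 was at 43.95% ± 2.56 and 52.8% ± 4.89 on 15 to 26 counts per library. All had an adjusted p above 0.9 with diffSpliceDGE. PSMC4-202 and PSME4-206 changed by 7.38 and 6.49 percentage points with overlapping libraries and did not pass either.

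Other genes of the proteasome pathway were read from lists written by function. Of 14 further proteasome genes 11 were tested, 1 fell (9.09%, where 3.19% of all genes were called lower) and 10 did not pass. AKIRIN2, which brings proteasomes into the nucleus, was at 12.02, 10.6, 16.5 and 14.1 CPM in shPTBP1 replicates 1 to 4 and at 24.6, 22.9, 18.01 and 24.4 in shControl replicates 1 to 4. The groups did not overlap (log2 fold change -0.76, SE 0.20, edgeR adjusted p = 0.0417). The call was kept in 4 of 13 alternatives, and of 8 fits with 1 library left out only in that without shControl replicate 3. USP14, a deubiquitinase of the cap, was at 42.3 ± 8.14 CPM with shPTBP1 and 79.7 ± 45.8 with shControl, where replicates 1 and 2 (126 and 112) stood above replicates 3 and 4 (36.7 and 44.3), and it was not called (edgeR adjusted p = 0.140). POMP, the chaperone of beta ring assembly, stood at 83.0 ± 5.94 and 95.9 ± 12.4 CPM (log2 fold change -0.21, SE 0.10) with an edgeR adjusted p of 0.299.

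Of 10 genes that control proteasome transcription 6 were tested, and none was called or had an unadjusted p under 0.05. NFE2L1, the factor that raises proteasome genes when degradation is blocked, was at 11.3 ± 5.79 CPM with shPTBP1 and 10.1 ± 4.497 with shControl (log2 fold change 0.15, SE 0.41, edgeR adjusted p = 0.891). Of 14 genes of ubiquitin and delivery 10 were tested, with no call by edgeR and none at an unadjusted p under 0.05.

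In class I antigen processing, which uses the peptides the proteasome makes, 10 of 14 genes were tested, 3 fell and 7 did not pass. The 3 were 30% of those tested, where 3.19% of all genes were called lower. Log2 fold changes were above zero in 3 genes, TAPBP (0.20), ERAP1 (0.20) and IRF1 (0.16), and below zero in 7. HLA-C (log2 fold change -0.25, adjusted p = 0.0272) and the peptide-loading chaperones CALR (-0.22, adjusted p = 0.0434) and PDIA3 (-0.37, adjusted p = 0.0208) fell by edgeR. CALR was called in none of the 8 fits with 1 library left out. HLA-C was called in 3, those without shPTBP1 replicate 1 and without shControl replicates 1 and 2. PDIA3 was called in 4, those without shPTBP1 replicates 3 and 4 and without shControl replicates 1 and 3. HLA genes are near copies of each other and HLA-B had 2 counts in all, so that their levels are uncertain. B2M, the shared light chain, was at 6092 ± 299.8 CPM with shPTBP1 and 6098 ± 201 with shControl. TAP1, which overlaps PSMB9, had a log2 fold change of -0.30 and was not called (edgeR adjusted p = 0.203). The inducible subunits PSMB8, PSMB9 and PSMB10, with log2 fold changes of -0.01, -0.21 and -0.04, stood beside these genes without a call.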

How the data were processed

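The series compared MOLM-13 cells with shPTBP1 and shControl (4 libraries each) by nanopore cDNA sequencing. The authors used minimap2 for alignment to hg38 with a limit on mapping quality, and deposited StringTie counts per transcript, which are unnormalized whole numbers. Versions and annotation are not given in the sources used here. A table of scaled values was not used. PCR-amplified cDNA molecules are not independent, so that limits from counts cover counting error only.

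Transcripts were assigned to genes by Ensembl identifier in GENCODE version 44 (252562 of 254070 matched) and summed. Genes that passed filterByExpr (minimum count 10) entered the edgeR quasi-likelihood test (version 4.0.16), scaled by TMM, with the group as the only term, with Benjamini-Hochberg adjustment over all 7597 genes (called at 0.05). CPM values used TMM library sizes. Isoform usage was tested with diffSpliceDGE, where calls took an adjusted p below 0.05 plus a shift of 10 percentage points. DESeq2 1.42.0, limma 3.58.1, other scalings, filters and libraries left out were alternatives. No value was imputed and no library dropped from the main fits. Single values were compared by exact two-sided permutation over the 8 libraries. The scripts were tested on simulated counts.

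The members, the lists of other genes and the tests were chosen with earlier results of these data known. Genes named were PTBP1, PTBP2 and NFE2L1, members that were called, did not overlap between groups, had the smallest p of their role or were not tested, the catalytic pairs, the activators and the inhibitor, and called genes of the lists. Isoforms named were those called, the 5 with the largest change, and NMD or retained-intron isoforms without overlap. Other names were added after their values were seen. Sequences came from the hg38 genome and, for promoters, from RefSeq (GRCh38.p14). PSMG3 has no promoter shown. Some genes of the lists are not reported here.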

Additional observations from a re-analysis of the deposited data

Results flagged for a closer look

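Within groups of 4 libraries, 74 sets of values were checked for 1 library far from the rest by Dixon's test, and 5 were picked out, where chance picks out about 1 in 20. PSME3 was at 50.6 CPM in shPTBP1 replicate 4 and at 29.1 to 30.4 in the other knockdown libraries. PSMB4-203 took 0.469% of the counts of PSMB4 in shPTBP1 replicate 4 and 0.345% to 0.357% in the others. The summed level of the 20S alpha ring was 3122 CPM in shPTBP1 replicate 1 and 3332 to 3373 in the others. The summed level of the 19S ATPases was 789 CPM in shPTBP1 replicate 3 and 834 to 842 in the others. The summed level of the assembly chaperones was 491 CPM in shControl replicate 3 and 469.9 to 474 in the other controls.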

How the results depend on the processing

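The count of proteasome genes called lower was 1 (PSMD9). It was 0 with DESeq2, with no filter on low counts, with a mean of at least 50 counts (where PSMD9 was not tested) and with the replicate block, and 0 to 1 with 1 library left out. The count called higher was 2 (PSMB5 and PSMG3). It was 1 with limma-voom and with library totals without TMM (PSMB5 in both), 0 with the replicate block, and 0 to 3 with 1 library left out. The cause of these changes was not tested beyond the fewer libraries. Over the whole table, 184 to 358 genes were called with 1 library left out. The median log2 fold change of the proteasome genes was -0.031 with library totals, where that of all genes was -0.039, and ran from -0.022 (without shControl replicate 1) to 0.032 (without shControl replicate 3) with 1 library left out. The count of called isoforms was 1 (PSME2-203) with no minimum change, an alternative chosen after seeing the data, and 0 under its other 13 alternatives. No value changed sign while called.

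Replicate numbers were shared by the groups, but same-numbered libraries did not deviate together (correlations from -0.03 to 0.01, and 0 of 8 libraries correlated best with its own number), so that the numbers pair nothing known. With the replicate block the adjusted p was 0.0554 for PSMB5, 0.0865 for PSMD9 and 0.0740 for PSMG3, and 323 genes were called in place of 421. Of the members with any count, PSMC1, PSMC2, PSMD1 and PSMD5 had the fewest. The part of depth, mapping or assignment of reads in this was not tested.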
